A study of Mus musculus with 8 samples.

Results

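Of 10 genes known for their roles in the sebaceous gland, 8 had a probe on the array and 6 were detected well enough to be tested. Of those 6, 5 were higher in skin whose Med1 gene had been deleted in keratinocytes. Among all genes tested, 29.4% were higher and 34.4% lower in that skin. The 10 genes, Mc5r, Krt79, Scd1, Scd3, Elovl3, Awat1, Awat2, Soat1, Far2 and Mgst1, were matched to probes by the gene symbol of the platform annotation, which gave 9 probes of 25697 on the array. Awat1, looked for also under its older symbol Dgat2l3, and Soat1 had no probe there and were not analysed here. Scd3 and Far2 each had 1 probe that was not detected on enough arrays to be tested. The members tested were thus 6 of the 10350 genes tested in all. Mc5r, Elovl3, Krt79, Awat2 and Mgst1 rose in the knockout, and Scd1 did not pass the test.

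The skin compared was whole back skin of C57BL6 mice 10 weeks of age, with no treatment named in the labels. All 8 mice carried floxed Med1 alleles (MED1 fl/fl). The 4 Med1 knockout (KO) mice also carried a Cre recombinase driven by the keratin 14 (K14) promoter, and the 4 Control (WT) mice were floxed mice called wild type in the labels. Each mouse gave its own RNA and its own Illumina mouse bead array. Med1 encodes a subunit of the Mediator complex, which links transcription factors to RNA polymerase. The K14 promoter is active in keratinocytes of the epidermis and its appendages, so the deletion was directed at these cells and not at the fibroblasts, adipocytes and immune cells of the sampled skin, and Med1 was not measured by cell type. In bulk skin, fewer cells of a type and less RNA per cell cannot be told apart, and the same holds for more.

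The sebaceous gland opens into the upper hair follicle. Its cells, the sebocytes, fill with lipid droplets and burst, and the released sebum is a mixture of wax esters, sterol esters, triglycerides and other lipids. To make a wax, fatty acids are built and lengthened, a desaturase sets a double bond, a reductase turns some of them into fatty alcohols, and a wax synthase joins the alcohol to another fatty acid. The melanocortin 5 receptor stimulates this secretion in mice. Not all of the 10 genes are particular to sebocytes. Scd1 is abundant in adipocytes as well, Krt79 marks cells of the duct and of the upper follicle, and Mgst1 is made in many tissues.

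The 250 bases before the annotated start were taken from RefSeq for the build GRCm38.p6 for 7 of the genes. No window of the remaining genes, some of which also rose, was analysed. Of the windows taken, 3 are printed, all of genes whose probes rose. Mgst1 is shown at 2 of its starts because its 2 probes moved by unequal amounts, and Krt79 because it had the smallest adjusted p among probes detected on all arrays. Capitals mark GGGCGG, the GC box, on the printed strand.
Mgst1 first start, chr6:138140277-138140526, plus strand: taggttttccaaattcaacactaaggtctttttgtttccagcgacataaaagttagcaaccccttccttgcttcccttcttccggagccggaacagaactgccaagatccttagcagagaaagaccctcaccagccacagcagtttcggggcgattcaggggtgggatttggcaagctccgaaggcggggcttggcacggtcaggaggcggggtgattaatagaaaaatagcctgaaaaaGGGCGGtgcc
Mgst1 second start, chr6:138141337-138141586, plus strand: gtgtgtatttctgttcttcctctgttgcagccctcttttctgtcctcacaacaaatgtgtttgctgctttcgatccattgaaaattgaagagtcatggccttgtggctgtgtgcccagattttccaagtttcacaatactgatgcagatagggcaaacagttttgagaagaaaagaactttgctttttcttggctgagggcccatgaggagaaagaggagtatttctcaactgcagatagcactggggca
Krt79, chr15:101940325-101940574, minus strand: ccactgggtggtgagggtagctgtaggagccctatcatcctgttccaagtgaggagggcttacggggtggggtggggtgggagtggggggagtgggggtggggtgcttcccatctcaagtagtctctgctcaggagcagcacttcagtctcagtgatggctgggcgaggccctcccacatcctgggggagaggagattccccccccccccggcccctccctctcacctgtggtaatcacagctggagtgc
Both strands were searched for AGGTCA, the core bound by many nuclear receptors, TATAAA, the TATA box, CCAAT, the CCAAT box, and GGGCGG. Of the printed windows, only that of the first Mgst1 start held a match, a GC box 10 bases before the start, and 32.7% of 32851 promoter windows of the same length held one. AGGTCA was found in 0 of the 9 windows at the starts of the 7 genes, against 14% of all windows. TATAAA was likewise in 0 of the 9, against 12.4%. CCAAT was found in both windows of Awat2 and in that of Soat1, against 33.8% of all windows. Such matches describe letters in a window and are not evidence that a factor bound there. Which transcript each Mgst1 probe reads was not analysed here.

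Over all genes the genotypes differed widely, and the members have to be read against that. Adjusted p is from limma's moderated test with Benjamini-Hochberg adjustment over all 15120 probes tested, where tested probes had a detection p under 0.05 on 4 arrays or more, and a gene with several probes is represented by its brightest. Signals are background-corrected and quantile-normalized log2 intensities with an offset of 16, and every change is KO minus control. Of all genes tested, 29.4% were called higher and 34.4% lower. Of the members tested, 5 of 6 were called higher and 0 lower. Their median change was 0.79, against -0.04 over all genes, and the probes that represent them were detected on all 8 arrays. Each array detected between 14593 and 15149 probes, and arrays correlated with r between 0.991 and 0.993 within a genotype and between 0.908 and 0.916 across genotypes. The labels were checked on Med1 itself: its brightest probe fell from 9.01 ± 0.08 to 8.22 ± 0.29 (SD, n = 4 each), to 57.9% of the control level (adjusted p = 0.000649). Another Med1 probe changed by -0.69 (adjusted p = 0.00861, limma). A dimmer one changed by only -0.23 and did not pass (adjusted p = 0.252, limma), and a further probe was not detected. Krt14, whose promoter drove the Cre, changed by 0.11 ± 0.07 (SE, adjusted p = 0.177, limma), and by -0.03 when arrays were scaled to a common median.

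**Figure D1:**
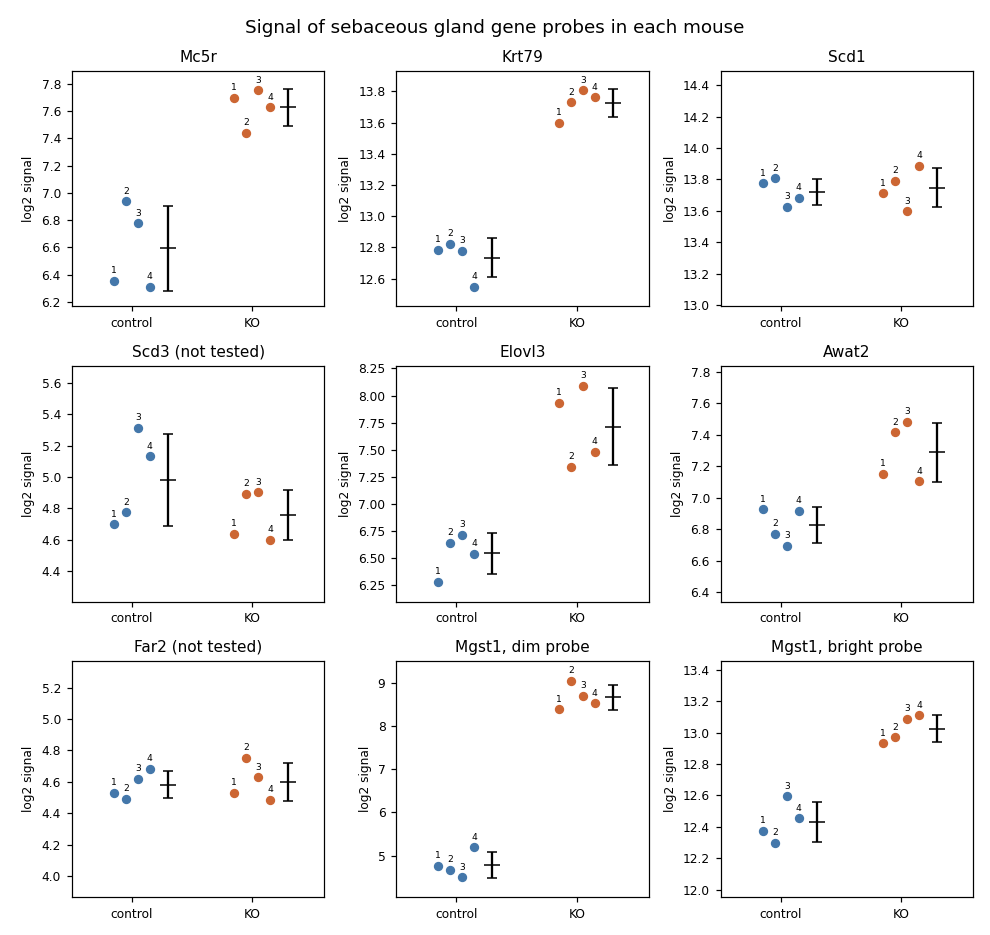
Log2 signal (background-corrected, quantile-normalized intensity) of the 9 probes of sebaceous gland genes in each of 4 control and 4 KO mice, numbered by replicate, with the group mean and SD at the right of each group. Each panel has its own axis. In Mc5r, Krt79, Elovl3, Awat2 and both Mgst1 probes every KO mouse lies above every control mouse, and in Scd1 the groups overlap.

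Mc5r, the receptor of the set, was about 2-fold higher in KO skin. In control mice 1 to 4 its log2 signal read 6.35, 6.94, 6.78 and 6.31, and in KO mice 1 to 4 it read 7.70, 7.44, 7.75 and 7.63. All KO mice lay above all control mice, and the control mice were the more scattered. The change was 1.03 ± 0.15 (SE, 95% interval 0.70 to 1.37, adjusted p = 0.000199, limma), a 2.05-fold rise. This was larger than the change of 92.8% of the probes tested. Groups in which every KO mouse lay above every control mouse were common, at 28% of all genes tested, and 5 of the 6 tested members were among them.

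The other genes of the melanocortin system were mostly at or below the limit of the arrays. Of 11 genes listed, 3 had no probe (Asip, Agrp and Mrap2) and 5 were not detected, the receptors Mc2r, Mc3r and Mc4r, the ligand precursor Pomc and the attractin gene Atrn. Of the 3 tested, 1 was called higher and 2 lower, against 29.4% and 34.4% of all genes tested. Mc1r, the receptor of pigment cells, changed by 0.66 ± 0.16 (adjusted p = 0.00548). It was detected on only 1 of the 4 control arrays and passed the filter through the 4 KO arrays alone, so the size is approximate. Mrap, an accessory protein of melanocortin receptors, changed by -0.35 ± 0.10 (adjusted p = 0.0101). Mgrn1, a ubiquitin ligase of this pathway, changed by -0.39 ± 0.07 (adjusted p = 0.00127). The calls of Mc1r and Mrap were lost without control mice 1 and 3, at adjusted p = 0.0547 and 0.0584 by limma.

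Krt79, a keratin of the sebaceous duct and upper follicle, rose with little spread among mice. Control mice 1 to 4 had log2 signals of 12.78, 12.82, 12.78 and 12.55, and KO mice 1 to 4 had 13.60, 13.73, 13.81 and 13.76. The groups did not overlap, and control mouse 4 was the lowest of all. The change was 0.99 ± 0.08 (SE, 95% interval 0.80 to 1.18, adjusted p = 6.19e-06, limma), or 1.99-fold. All 6 tested genes on the list of upper follicle and duct genes were called higher, against 29.4% of all genes tested. Their median change was 0.65, and the antiprotease gene Cst6 was not detected. With a detection p under 0.01 asked of all arrays, 5 could be tested and 5 were called higher. Klk10, a kallikrein protease, rose by 3.05 ± 0.06, from a mean log2 signal of 7.62 to 10.67 (adjusted p = 5.24e-10). Krt17, a keratin of follicle and appendage epithelium, rose by 0.80 ± 0.06 (adjusted p = 4.39e-06). Plet1, a surface marker of the follicle junction, was detected on 1 control array and on all 4 KO arrays, which alone brought it past the filter. Its change of 1.75 is therefore approximate, and it ran from 0.60 to 2.31 over the alternative analyses. Across mice the mean deviation of the 6 genes ran from -0.58 to -0.55 in control mice and from 0.46 to 0.69 in KO mice. Klk10 and Plet1 weigh most in that mean, and the changes of the other genes ran from 0.25 for Defb6 to 0.80 for Krt17.

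The elongase Elovl3 rose the most of the tested members with a role in lipid synthesis. ELOVL3 lengthens saturated and monounsaturated fatty acids to very long chains. Elovl3 signals were 6.28, 6.64, 6.72 and 6.54 in control mice 1 to 4 and 7.93, 7.34, 8.09 and 7.48 in KO mice 1 to 4. The groups did not overlap, but the KO mice fell into a higher pair, 1 and 3, and a lower pair, 2 and 4, and their SD of 0.36 exceeded the 0.19 of the control mice. The change was 1.17 ± 0.17 (SE, 95% interval 0.78 to 1.56, adjusted p = 0.000246, limma), or 2.25-fold. Elovl6, which lengthens palmitate and acts earlier in the pathway, changed by only 0.19 ± 0.07 (adjusted p = 0.0451), a call that held in only 10 of 21 alternative analyses. The difference between both changes was 0.98 (95% interval 0.58 to 1.39), and it was larger than the spread among mice (two-sided exact permutation test over 70 assignments, p = 0.0286, the smallest it can give, and adjusted p = 0.0429 over the 3 gene pairs that could be tested of 7 listed).

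Of the 13 genes of fatty acid synthesis and elongation that were tested, 7 were called higher, 2 lower and 4 did not pass. The shares among all genes tested were 29.4% higher and 34.4% lower. The median change of the 13 genes was 0.19. Fasn, the fatty acid synthase, was not detected by its probe on any array. Hacd3 and Tecr, which complete the elongation cycle after the elongase, rose by 0.87 ± 0.07 (adjusted p = 4.77e-06) and 0.65 ± 0.07 (adjusted p = 4.51e-05). Hacd1, a dehydratase made chiefly in muscle, fell by 0.94 ± 0.08 (adjusted p = 5.85e-06, limma). Acly and Acaca, which supply the precursors of fatty acids, rose by 0.35 ± 0.06 and 0.40 ± 0.07 (adjusted p = 0.00104 and 0.000727). Probes of Elovl1 went both ways: the brightest changed by -0.32 and another by 0.90, both past the threshold.

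Scd1 stood apart from the other tested members because its signal did not pass the test. SCD1 sets the double bond of oleate and palmitoleate and is the main stearoyl-CoA desaturase of sebocytes. Scd1 signals were 13.77, 13.81, 13.63 and 13.68 in control mice 1 to 4 and 13.71, 13.79, 13.60 and 13.89 in KO mice 1 to 4. The groups overlapped throughout, with the highest and the lowest mouse both among the KO mice. The change was 0.02 ± 0.08 (SE, 95% interval -0.16 to 0.21, adjusted p = 0.820, limma). The interval leaves out a change as large as that of Krt79 or Elovl3, and the alternative analyses gave values between -0.06 and 0.07. Scd3, a desaturase reported from mouse sebaceous gland, was detected on 1 control array and on no KO array, with signals of 4.70, 4.78, 5.31 and 5.13 in control mice and 4.64, 4.89, 4.90 and 4.60 in KO mice. These values lay near the background of the arrays and overlapped, so no fold is given.

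Scd2, the close relative of Scd1, rose where Scd1 did not pass. Its signals were 7.39, 7.74, 7.60 and 7.45 in control mice and 8.62, 8.80, 8.61 and 8.71 in KO mice. The groups were well apart, with a change of 1.14 ± 0.09 (adjusted p = 4.67e-06, limma), or 2.20-fold. The change of Scd1 minus that of Scd2 was -1.11 (95% interval -1.35 to -0.88, exact permutation p = 0.0286, adjusted p = 0.0429 over 3 pairs). Scd1 and Scd2 are near neighbours in sequence, and cross-hybridization between their probes was not analysed here. Of 5 other desaturases tested, 3 were called higher and 0 lower, against 29.4% and 34.4% of all genes tested. Their median change was 1.10, and the lower calls ran from 0 to 2 over the alternative analyses. Scd4 and Degs2 were not detected. Fads3, a member of the fatty acid desaturase family, rose by 2.63 ± 0.08 (adjusted p = 9.97e-09, limma), and Fads2, the delta-6 desaturase, which in human sebaceous glands acts on palmitate, by 1.10 ± 0.19 (adjusted p = 0.000612). Fads1 and Degs1 changed by -0.10 ± 0.07 and -0.15 ± 0.07 and did not pass.

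**Figure D2:**
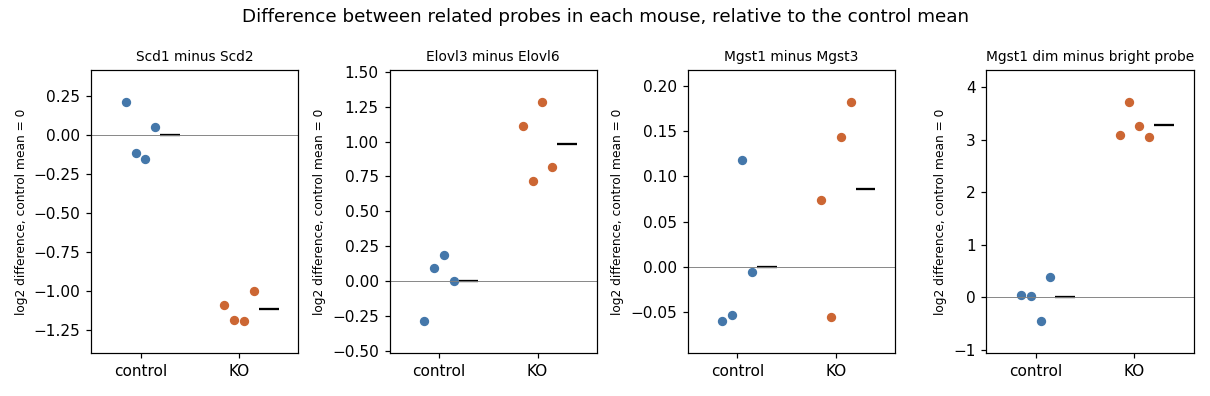
Difference in log2 signal between 2 related probes in each control and KO mouse, with the mean of the control mice set to 0 and bars at the group means. Scd1 minus Scd2 fell by 1.11 and Elovl3 minus Elovl6 rose by 0.98 without overlap between groups, Mgst1 minus Mgst3 overlapped, and the dim minus the bright Mgst1 probe rose by 3.28.

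Awat2, the one wax synthase with a probe, rose by less than 1.5-fold. AWAT2 joins fatty alcohols to fatty acids to form wax esters. Awat2 signals were 6.93, 6.77, 6.69 and 6.92 in control mice 1 to 4 and 7.15, 7.42, 7.48 and 7.10 in KO mice 1 to 4. Every KO mouse lay above every control mouse, but the gap between KO mouse 4 and control mouse 1 was small. The change was 0.46 ± 0.11 (SE, 95% interval 0.22 to 0.70, adjusted p = 0.00383, limma), or 1.38-fold, and it was 0.24 on signals without background correction. Far2, the reductase that makes fatty alcohols for sebum, was not above background on any of the 8 arrays, with signals from 4.49 to 4.75, and no direction can be given. Its relative Far1, which also feeds ether lipid synthesis and is widely expressed, rose from a mean of 7.11 to 8.04, by 0.93 ± 0.10 (adjusted p = 2.56e-05, limma). The difference between Far1 and Far2 could not be tested.

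The enzymes of glycerolipids, sterol esters and ether lipids showed no common direction. Of 8 genes tested, 2 were called higher, 3 lower and 3 did not pass, with a median change of 0.01. The shares among all genes tested were 29.4% higher and 34.4% lower. Lpin1, a phosphatidate phosphatase, fell by 1.37 ± 0.08 (adjusted p = 7.03e-07, limma). Agpat2, an acyltransferase of triglyceride synthesis, rose by 0.55 ± 0.11 (adjusted p = 0.00186). Gnpat, which with Agps begins ether lipid synthesis, fell by 0.36 ± 0.07 (adjusted p = 0.00164). The triglyceride synthases Dgat1 and Dgat2 changed by 0.16 ± 0.10 and -0.13 ± 0.07 and did not pass. Soat2 and Dgat2l6 had no probe, and Mogat1 and Mogat2 were not detected.

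Mgst1, a membrane-bound glutathione transferase that is abundant in sebocytes, rose at both of its probes, but by unequal amounts. The bright probe had signals of 12.37, 12.30, 12.59 and 12.45 in control mice 1 to 4 and 12.93, 12.97, 13.09 and 13.11 in KO mice 1 to 4. These groups did not overlap, and the change was 0.59 ± 0.08 (SE, 95% interval 0.40 to 0.79, adjusted p = 0.000193, limma), or 1.51-fold. The dim probe had signals of 4.77, 4.68, 4.50 and 5.20 in control mice and 8.38, 9.04, 8.70 and 8.52 in KO mice. It was detected on 1 of the 4 control arrays, that of mouse 4, and on all KO arrays. It was tested because the KO arrays alone met the detection filter, so its change of 3.88 is given as an approximate description, and it ran from 1.89 to 4.52 over the alternative analyses. On the scale of the raw intensities the same probe read 118.3 to 154.5 in control mice and 469.8 to 771.5 in KO mice. The measured change of the dim probe exceeded that of the bright one by 3.28, a comparison chosen after these values were seen and given without a test because the dim probe was at background in 3 control mice.

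Other glutathione transferases and membrane proteins related to Mgst1 were more often lower than higher. Of 14 such genes tested, the soluble transferases included, 2 were called higher, 8 lower and 4 did not pass. The shares among all genes tested were 29.4% higher and 34.4% lower. The median change of the 14 genes was -0.41. Mgst3 rose by 0.51 ± 0.07 (adjusted p = 0.000128, limma), from signals between 12.20 and 12.33 to signals between 12.71 and 12.88. The changes of Mgst1 at its bright probe and of Mgst3 differed by 0.09 (95% interval -0.08 to 0.25, exact permutation p = 0.257, adjusted p = 0.257), an interval that does not show equal change. Alox5ap and Ltc4s, which make leukotrienes in immune cells, changed by -1.06 ± 0.08 (adjusted p = 2.62e-06) and -1.33 ± 0.12 (adjusted p = 7.55e-06). Gstm1, a soluble transferase, fell by 1.07 ± 0.06 (adjusted p = 4.79e-07, limma).

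Regulators and other markers of sebocytes were divided. Of 13 tested, 6 were called higher, 3 lower and 4 did not pass, against 29.4% higher and 34.4% lower of all genes tested. Their median change was 0.12. The counts ran from 3 to 6 higher and from 1 to 4 lower over the alternative analyses. With a detection p under 0.01 asked of all arrays, 10 could be tested, of which 5 were called higher and 1 lower. Of the 3 lower genes, Muc1 and Krt7 passed the filter through the control arrays alone, with 1 and 2 KO arrays detected. Pparg, the nuclear receptor that drives the differentiation of sebocytes and adipocytes, had signals of 9.32, 9.22, 9.23 and 9.41 in control mice and 9.62, 9.69, 9.60 and 9.52 in KO mice. The groups did not overlap, and the rise of 0.31 ± 0.07 (adjusted p = 0.00450, limma) was smaller than the 0.65 ± 0.14 at its other tested probe (adjusted p = 0.00213). Plin2, which coats lipid droplets, rose by 0.85 ± 0.18 (adjusted p = 0.00209), and Cebpb, a transcription factor of lipid-forming cells, by 0.64 ± 0.09 (adjusted p = 0.000168). Prdm1, a repressor found in sebaceous gland cells, was above background on 0 of 4 control arrays and on all KO arrays, which alone brought it past the filter. It was at least 1.35-fold higher in KO skin, a bound taken against the lowest detected signal on each array. Nr1h3, the liver X receptor alpha that induces desaturases in the liver, fell by 1.14 ± 0.10 (adjusted p = 1.02e-05). Cidea, a droplet protein of sebocytes and fat cells, moved by 0.12 ± 0.07 (adjusted p = 0.176).

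**Figure D3:**
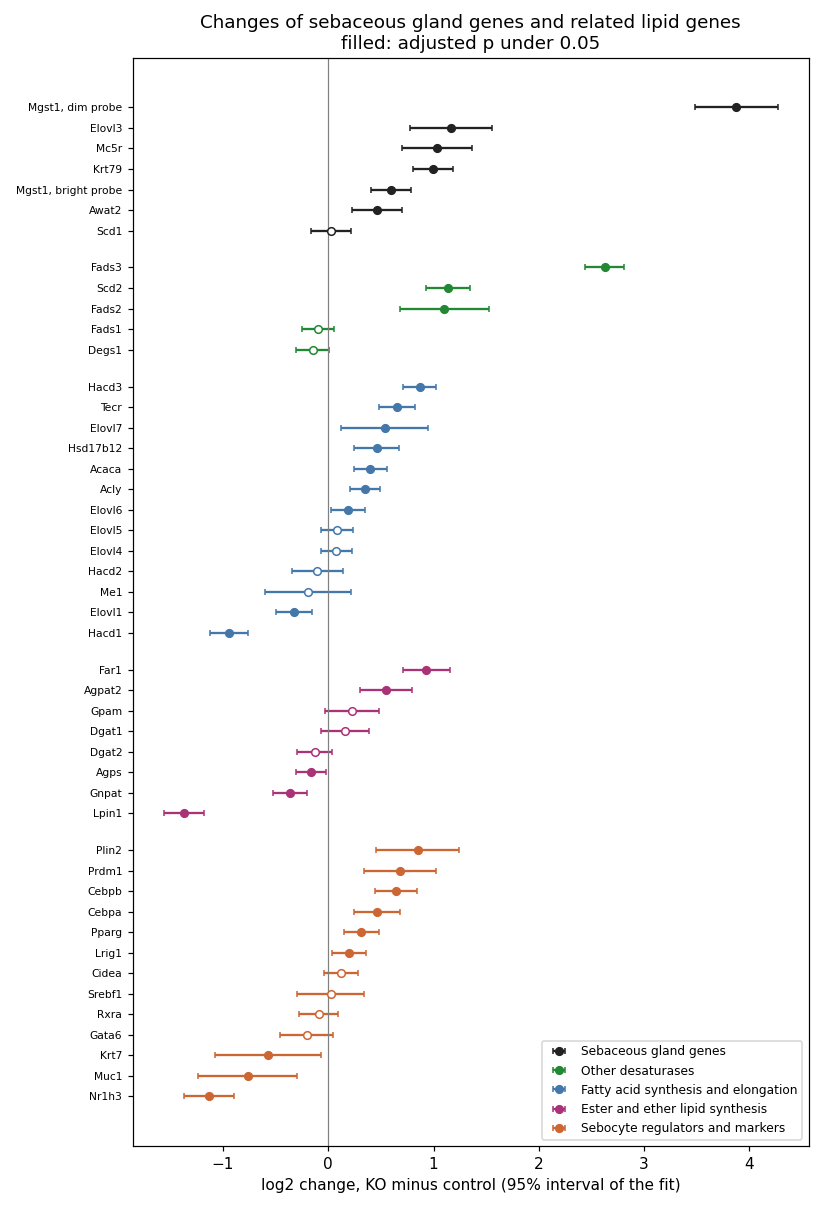
Log2 change (KO minus control) with the 95% interval of the limma fit for 7 probes of sebaceous gland genes and for genes of 4 related lists, n = 4 mice per genotype. Filled points have an adjusted p under 0.05. The sebaceous gland probes other than Scd1 lie to the right of 0, while the lists of ester and ether lipid synthesis and of sebocyte regulators hold changes on both sides. The Prdm1 point is the measured change of a gene at background in control skin.

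Markers of other cells in the same skin also differed between genotypes, and their part in the changes of the sebaceous gland genes was not tested. All 9 tested genes of hair shaft and inner root sheath were called higher, against 29.4% of all genes tested. Their median change of 8.35 is approximate because many of them were near background in control skin. With a detection p under 0.01 asked of all arrays, 0 of them could be tested. The change of Krt31, detected on 1 control array, ran from 6.19 to 9.09 over the alternative analyses, and Krt35 was at least 171-fold higher, against 0 control arrays above background. Their mean deviation ran from -5.08 to -2.95 in control mice and from 4.03 to 4.09 in KO mice. The raw signals of these 9 genes summed to between 1249.6 and 3560.6 in control mice and between 197658 and 209947 in KO mice. Control mice 1 and 3 were the highest of the control mice in hair genes. Without them 5 of 6 members were called higher, with changes of 1.0 for Mc5r, 1.04 for Krt79, 1.12 for Elovl3, 0.44 for Awat2 and 0.65 for the bright Mgst1 probe. The control mice kept, 2 and 4, had hair gene deviations of -5.08 and -5.06, the farthest from the KO mice. A part of the hair state in the changes of the members was therefore not tested.

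Fat cells also make Scd1, and their part in its signal was not tested. White adipocyte markers were lower in 5 of 8 genes tested, higher in 1 and not passing in 2, with a median change of -0.38. Among all genes tested, 34.4% were lower and 29.4% higher. Car3, a carbonic anhydrase abundant in fat and muscle, fell by 1.10 ± 0.08 (adjusted p = 3.00e-06, limma). Plin4, a lipid droplet protein, fell by 0.89 ± 0.08 (adjusted p = 1.26e-05). Adipoq, a hormone of fat cells, fell by 0.42 ± 0.06 (adjusted p = 0.000238, limma), while Lep, the leptin gene, rose by 0.65 ± 0.11 (adjusted p = 0.000747). Fabp4 and Retn, defining markers of fat cells, were not detected by their probes, and Cfd had none. Their mean deviation was 0.06 to 0.21 in control mice and -0.23 to -0.10 in KO mice, and their raw signals summed to 27070.2 to 34858.9 and to 18043.6 to 21636.5. Of the brown adipocyte markers, Ucp1 and Dio2 were not detected, while Cox8b and Cox7a1, which muscle also makes, fell by 1.73 ± 0.07 and 1.91 ± 0.06.

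All 6 tested macrophage markers were lower, against 34.4% of all genes tested, and their median change was -0.87. Their summed raw signals were 18128.7 to 26015.2 in control and 14797.6 to 17784.7 in KO mice, and their mean deviations 0.38 to 0.43 and -0.47 to -0.33. Mrc1, the macrophage mannose receptor, fell by 1.01 ± 0.06 (adjusted p = 8.25e-07). Cd163, a receptor of resident macrophages, fell by 1.25 ± 0.10 (adjusted p = 2.94e-06, limma). Cd68 and Csf1r had no probe. Markers of basal keratinocytes showed no common shift. Of 5 genes tested, 1 was called higher, 2 lower and 2 did not pass, with a median change of -0.03. Among all genes tested, 29.4% were called higher and 34.4% lower. Itgb4 changed by -0.61 ± 0.08 (adjusted p = 7.95e-05, limma) and Krt5 by -0.30 ± 0.08 (adjusted p = 0.0113), while Trp63 rose by 0.31 ± 0.06 (adjusted p = 0.00228). Across all 6 tested members the mean deviation ran from -0.42 to -0.28 in control mice and from 0.28 to 0.47 in KO mice, with KO mouse 3 the highest.

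**Figure D4:**
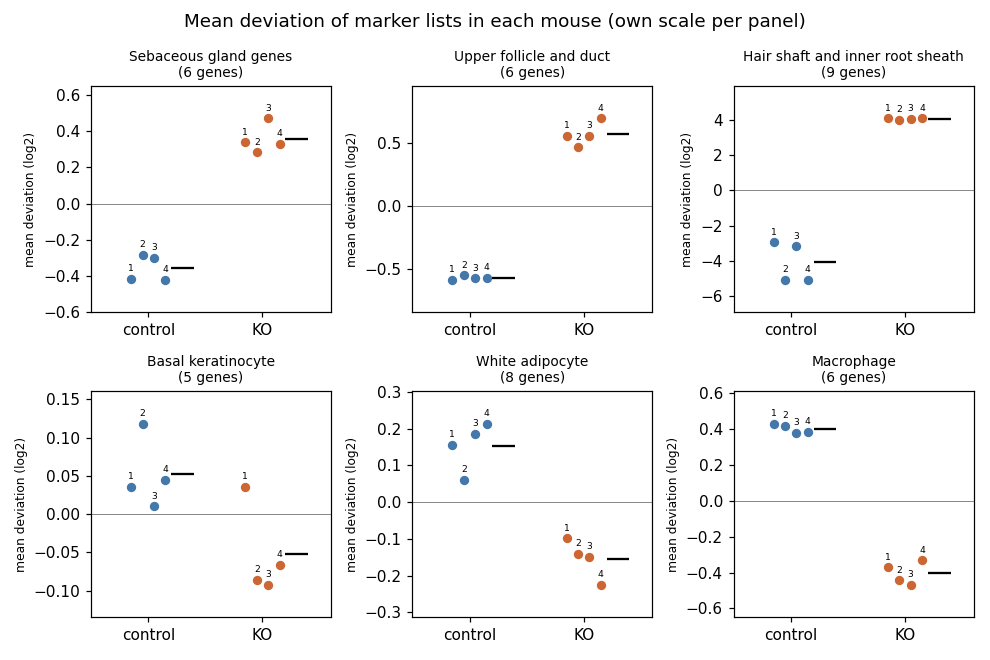
Mean over the tested genes of each list of the log2 signal minus the mean of the gene over 8 arrays, for each control and KO mouse, with bars at group means and an axis of its own in each panel. Sebaceous gland, upper follicle and hair genes were higher in all KO mice, white adipocyte and macrophage genes lower, and basal keratinocyte genes overlapped. The upper follicle mean includes Plet1, and the hair mean includes many genes, near background in control skin.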

How the data were processed

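Whole back skin RNA of 8 mice was measured on Illumina mouse bead arrays, 1 array a mouse. Per the file headers, the authors deposited the bead intensity of each probe and its detection p-value against negative control beads. The intensities are linear and were neither background-subtracted nor scaled between arrays. The authors also deposited normalized intensities, which have equal quantiles and a median of 39.1 on each array, and these were used as an alternative only. The submitters' processing notes name GenomeStudio 2011.1. The sources used here do not say how they were normalized beyond that. Array medians of the raw signal ran from 152.2 to 193.6, and the number of arrays limits the precision.

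Raw intensities were corrected for background, normalized to common quantiles and turned to log2 with neqc (offset 16, background inferred from the detection p) of limma 3.58.1 in R 4.3.3. The offset pulls changes of dim probes toward 0. Probes with a detection p below 0.05 on at least 4 of 8 arrays were fitted with lmFit and eBayes, without covariates, and p-values were adjusted by Benjamini-Hochberg over all of them at a threshold of 0.05. Probes were named by the platform annotation, with symbols updated through RefSeq (23962 of 25697 probes matched). The brightest tested probe represented a gene. Differences in change between related genes were tested by exact permutation of the mice. Genes named are Med1, Krt14, every member, Pparg, both genes of each pair and in each list 1 to 3 of the 3 genes with the lowest adjusted p. Other genes, such as Lep, Acly, Acaca, Agpat2, Fads1, Degs1, Dgat1, Dgat2, Elovl1, Muc1, Krt7 and Defb6, were named after their values were seen. Genes not detected were named likewise, except those set down in the design as cell type markers. Prdm1 and Cidea were also set down there. For a gene with no detected array in a group, the bound divides the brighter group's mean by the dimmer group's mean of, per array, the lowest detected signal or the probe's own, whichever was higher. The mice are separate animals. Members and lists were chosen with earlier results of these data known, and their counts are descriptions. Alternatives are given in the closing section.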

Additional observations from a re-analysis of the deposited data

Results flagged for a closer look

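Of 96 groups of 4 mice, 6 had 1 mouse far from the other mice, where chance gives about 1 in 20. In control skin, Krt79 was lowest in mouse 4, at 12.55, with the other mice at 12.78 to 12.82. Hacd3 was highest in control mouse 2, at 12.32, with the others at 12.19 to 12.20. Krt31 was highest in control mouse 1, at 5.80, with the others at 4.77 to 4.85. Lpin1 was highest in control mouse 3, at 9.91, with the others at 9.62 to 9.67. Among KO mice, Hacd1 was highest in mouse 2, at 10.34, with the others at 10.15 to 10.17. Nr1h3 was lowest in KO mouse 4, at 7.93, with the others at 8.27 to 8.30. In each case the mouse lay nearer to its own group than to any mouse of the other genotype.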

How the results depend on the processing

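Of 6 members tested, 5 were called higher and 0 lower in every alternative but 1. The methods' t-test at an unadjusted 0.005 called 4, since Awat2, with a change of 0.46, missed that threshold. Over all alternatives 3431 to 4810 probes were called higher and 3546 to 4974 lower, against 4636 and 4837. Without background correction the changes shrank to 0.55 for Mc5r, 0.63 for Elovl3, 0.24 for Awat2 and 1.89 for the dim Mgst1 probe, and the difference Elovl3 minus Elovl6 to 0.45. The same probes had low signals. Scaling to a common median gave 51.5% of calls higher, against 48.9%.

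The replicate numbers did not pair the mice: same-numbered mice deviated with r from -0.11 to 0.06, and in 1 of 4 numbers the best match was its own. With the replicate block 4466 probes were called higher and 4726 lower, and 5 members higher. The slide as a block was not run, since slides are not given in the sources used here. Gene pairs with the block were kept as values. An exact permutation test on the size of the difference, added after seeing the data, was repeated without each mouse in turn. For Scd1 minus Scd2 and Elovl3 minus Elovl6 this exact permutation test gave p = 0.0286 (adjusted p = 0.0429) in all 8 cases. That is the smallest p it can give over 35 assignments. Both differences already separated all KO from all control mice, so the value was close to fixed and no conclusion is drawn from it. The exact permutation test with the smaller tail doubled gives p = 0.0571 at best.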
